A study of Mus musculus with 12 samples.

Results

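The genes described here are 10 members of interleukin 6 family signaling and its neighbors: the ligands Osm and Lif, the receptor chains Osmr, Lifr, Il6ra and Il6st, the transcription factor Stat3, the inhibitors Socs3 and Socs2, and Il4ra, the receptor chain for interleukins 4 and 13. They were chosen by symbol, each matched 1 row of the table, and they are 10 of the 31208 genes listed there. Brain RNA of 12 C57BL/6 mice, 8 weeks old and male according to the methods, was sequenced as long nanopore reads of PCR-amplified cDNA. The 4 sham mice had no occlusion, and the 4 vehicle-treated and 4 lactate-treated mice had the left middle cerebral artery blocked by a filament (MCAO), with brain tissue taken 6 h after ischemia. Vehicle was sterile saline and lactate was dissolved in it, and both were injected into the cerebral ventricle on the day before surgery. According to the methods the compound was D-lactate, which the labels call lactate, and an injection of the sham mice is not given in the sources used here. All lactate-treated mice analysed here were ischemic, so lactate without ischemia was not measured. The question was which of these genes differed between ischemic and sham brains, and whether lactate given beforehand moved them further.

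Cytokines of the interleukin 6 family bind a receptor chain of their own and then the shared chain gp130, the product of Il6st. Janus kinases bound to the receptor phosphorylate STAT3, which enters the nucleus and switches on target genes. Socs3 is among these targets, and its protein binds gp130 and the kinases and shuts the signal down, so Socs3 mRNA is widely used as a readout of recent signaling. In injured brain, this pathway is known for its part in the reactive state of astrocytes, and oncostatin M and leukemia inhibitory factor, encoded by Osm and Lif, are released by leukocytes and glial cells.

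In ischemic brains of vehicle-treated mice, Socs3 and Il4ra rose against sham, by 6.76-fold and 3.45-fold. With lactate, Socs3, Il4ra, Osmr and Stat3 rose against sham, by 7.80-fold, 3.77-fold, 5.28-fold and 1.83-fold. The shared chain Il6st and the receptor chains Lifr and Il6ra were not called in either comparison. Osm and Lif had no read in any of the 4 sham mice and were read at low counts in ischemic mice. Between lactate and vehicle, none of the 10 genes was called. A gene is called here where its adjusted p in the quasi-likelihood test of edgeR was under 0.05 and it differed by 1.5-fold or more.

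Levels are given in CPM, the reads counted on a gene scaled to the total counted in that mouse. Total counts ranged from 6815920 to 10677224 per mouse, so 3 counts, taken as the smallest level told from 0, correspond to 0.281 to 0.440 CPM. Such floors cover counting error only. The labelled tissue was checked with markers: the sum of 5 neuron markers was 3124 to 4908 CPM, of 7 astrocyte markers 6039 to 11389 CPM and of 5 oligodendrocyte markers 5328 to 10723 CPM, and none of these genes was at 0 in any mouse. Vehicle-treated mouse 1 stood apart on the second principal component, at 57.2 against -14.6 to -7.9 in the other vehicle-treated mice. Vehicle-treated mouse 2 had 1838 CPM of choroid plexus markers, against 4.25 to 14.7 CPM in the other vehicle-treated mice, 1.36 to 5.41 CPM in sham mice and 10.3 to 19.2 CPM in lactate-treated mice. Values without them are given beside the results they move most. In bulk tissue, fewer cells of a type and less RNA per cell cannot be told apart.

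The Socs3 gene lies on chromosome 11 from 117966079 to 117970047, on the minus strand, in the GENCODE M21 annotation of GRCm38. It has 3 annotated transcripts of up to 2 exons, and no other annotated gene overlaps it. Its promoter window, from 250 bases before the RefSeq start to 50 after it, is shown because it holds the only match among the windows of these genes to TTCNNNGAA, the spacing that STAT3 is known to bind. That window is chr11:117969317-117969616 on the minus strand of GRCm38.p6. The match is in capitals and lies 154 to 146 bases before the RefSeq start. On the minus strand the GENCODE gene begins at 117970047, so the RefSeq start differs from it. The whole window, with the match, lies inside the GENCODE gene. The Il4ra window, chr7:125552021-125552320 on the plus strand, is shown for comparison and has no match.
Socs3: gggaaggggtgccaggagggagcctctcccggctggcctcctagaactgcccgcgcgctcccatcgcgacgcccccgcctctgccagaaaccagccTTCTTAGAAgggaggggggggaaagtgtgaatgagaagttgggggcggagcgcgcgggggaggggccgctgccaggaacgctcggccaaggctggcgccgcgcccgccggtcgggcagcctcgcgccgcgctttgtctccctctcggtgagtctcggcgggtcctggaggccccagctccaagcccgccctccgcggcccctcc
Il4ra: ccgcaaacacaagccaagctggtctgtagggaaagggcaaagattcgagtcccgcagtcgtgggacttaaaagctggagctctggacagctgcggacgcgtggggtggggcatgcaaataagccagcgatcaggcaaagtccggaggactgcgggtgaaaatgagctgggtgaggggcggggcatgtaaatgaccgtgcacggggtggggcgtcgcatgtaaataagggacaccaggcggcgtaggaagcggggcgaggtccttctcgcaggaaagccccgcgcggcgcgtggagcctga
RefSeq windows were found for 8 of the 10 genes, all but Osm and Socs2, with 9 windows in all because Lifr has a pair. The motif TTCNNNGAA, which reads the same on both strands, was found in 1 of these 9 windows and in 2725 of 32841 windows of all genes (8.3%). The form with 1 more base in the gap between TTC and GAA was found in 0 of the 9 windows and in 2283 of all windows (6.95%). A match describes letters in this window and is not a measured binding site.

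Socs3 was read at 1.05, 1.00, 2.17 and 1.60 CPM in sham mice 1 to 4. In vehicle-treated mice it was 7.96, 10.7, 10.3 and 9.54 CPM, and in lactate-treated mice 9.47, 12.7, 11.9 and 10.6 CPM. Every ischemic mouse lay above every sham mouse, and the lowest ischemic mouse was vehicle-treated mouse 1. The means were 1.46 ± 0.548, 9.64 ± 1.23 and 11.1 ± 1.43 CPM (SD, n = 4 in each group). Against sham, the log2 fold change was 2.76 ± 0.280 (SE) with vehicle (adjusted p = 0.000139, edgeR) and 2.96 ± 0.258 with lactate (adjusted p = 9.69e-06, edgeR). Socs3 encodes a feedback inhibitor, and among the 8 genes tested it had the largest fold change against sham in either treatment. Without vehicle-treated mouse 1 the log2 fold change with vehicle was 2.84, and without mouse 2 it was 2.70.

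Socs2 encodes a related inhibitor that is best known for limiting growth hormone signaling, and its values went another way. It was 5.41, 7.47, 14.0 and 8.63 CPM in sham mice, 10.8, 16.2, 12.7 and 12.6 CPM in vehicle-treated mice, and 5.54, 11.3, 6.99 and 10.6 CPM in lactate-treated mice. The groups overlapped in all 3 comparisons, and the sham mice alone spanned 5.41 to 14.0 CPM. The log2 fold change against sham was 0.59 ± 0.272 with vehicle (unadjusted p = 0.0484, adjusted p = 0.358, edgeR) and -0.01 ± 0.295 with lactate (adjusted p = 0.989, edgeR). The sign of the latter turned when single mice were left out. Neither passed the test.

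Stat3 encodes the transcription factor on which these receptors converge. The gene lies on chromosome 11 from 100885098 to 100939540, on the minus strand, and overlaps Stat5a on the opposite strand. Whether reads were counted by strand is not given in the sources used here, and the summed counts of Stat5a were 14, 30 and 30 in the sham, vehicle and lactate groups, against 452, 893 and 813 of Stat3. Stat3 was 17.0, 14.3, 14.0 and 11.3 CPM in sham mice. With vehicle it was 35.8, 16.7, 28.5 and 22.4 CPM, and with lactate 19.1, 29.1, 25.6 and 27.2 CPM. All 4 lactate-treated mice lay above all sham mice, whereas vehicle-treated mouse 2, at 16.7 CPM, lay within the sham range.

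Group means of Stat3 were 14.2 ± 2.32, 25.9 ± 8.18 and 25.2 ± 4.37 CPM (SD, n = 4), so the ischemic means were close and the vehicle-treated mice varied more. It came to a log2 fold change of 0.91 ± 0.231 with vehicle, which was not called (adjusted p = 0.0858, edgeR), and 0.87 ± 0.168 with lactate, which was called (adjusted p = 0.00564, edgeR). The vehicle call turned with the analysis. Stat3 was called without vehicle-treated mouse 2 (log2 fold change 1.07, adjusted p = 0.032), with DESeq2 (0.92, adjusted p = 0.0128) and with all 12 mice in a single edgeR fit (0.93, adjusted p = 0.0439). Without mouse 1, which had the highest level, it was 0.70 and not called. Over all alternatives its adjusted p with vehicle ranged from 0.0128 to 0.238.

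**Figure D1:**
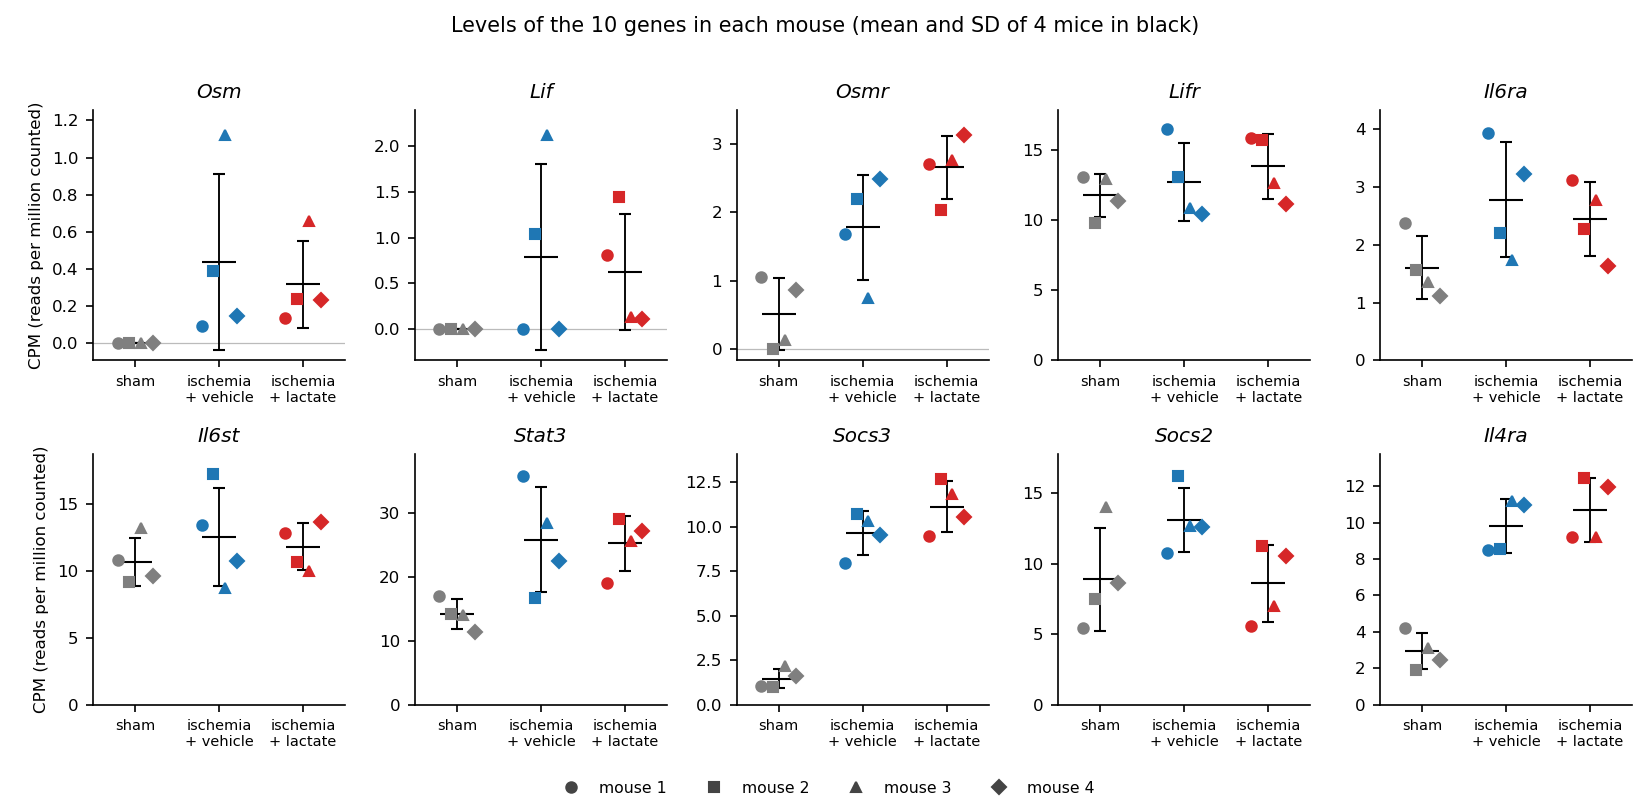
Level of each of the 10 genes in CPM (linear axis) by group, with a marker for each mouse and the mean and SD of 4 mice in black. Every ischemic mouse lies above every sham mouse for Socs3 (sham 1.00 to 2.17 CPM, ischemic 7.96 to 12.7 CPM) and Il4ra, while Il6st and Lifr overlap between all groups.

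Osmr encodes the chain that joins gp130 to form the oncostatin M receptor. The gene lies on chromosome 15 from 6813577 to 6874969, on the minus strand, and Lifr lies on the same chromosome on the plus strand, at 7090614 to 7197489. Osmr was scarce in sham brain, with 8, 0, 1 and 7 reads, or 1.05, 0, 0.136 and 0.863 CPM. Vehicle-treated mice had 18, 17, 6 and 17 reads (1.69, 2.20, 0.747 and 2.49 CPM), and lactate-treated mice had 20, 17, 21 and 27 reads (2.70, 2.04, 2.77 and 3.13 CPM). All lactate-treated mice lay above all sham mice, and vehicle-treated mouse 3 lay within the sham range. Osmr passed the filter of 1 CPM in 4 mice largely through the ischemic mice, since 1 of 4 sham mice reached 1 CPM.

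The group means of Osmr were 0.514 ± 0.523, 1.78 ± 0.767 and 2.66 ± 0.456 CPM (SD, n = 4). The log2 fold change against sham was 1.82 ± 0.665 with vehicle, which was not called (unadjusted p = 0.0174, adjusted p = 0.253, edgeR), and 2.40 ± 0.559 with lactate (adjusted p = 0.0143, edgeR). The lactate call was lost without sham mouse 3 (log2 fold change 2.10, adjusted p = 0.0506). With so few reads in sham brain, the 95% interval of the fold change with lactate ran from 2.29-fold to 12.2-fold.

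Lifr, the chain that joins gp130 to form the receptor for leukemia inhibitory factor, was 9.81 to 13.1 CPM in sham, 10.4 to 16.5 CPM in vehicle-treated and 11.1 to 15.8 CPM in lactate-treated mice. The groups overlapped. Its log2 fold change against sham was 0.15 (95% interval -0.28 to 0.59) with vehicle and 0.27 (-0.10 to 0.64) with lactate, and neither was called. The vehicle value came to -0.01 without mouse 1, which had the highest level of the vehicle-treated mice.

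As Osmr and Lifr share gp130, the share of Osmr in the reads of both was taken within each mouse. It was 7.48, 0, 1.04 and 7.07% in sham mice, 9.28, 14.4, 6.45 and 19.3% in vehicle-treated mice, and 14.6, 11.5, 18.0 and 22.0% in lactate-treated mice. All lactate-treated mice lay above all sham mice, and vehicle-treated mouse 3 overlapped with sham. The means were 3.90 ± 3.93, 12.4 ± 5.69 and 16.5 ± 4.49% (SD, n = 4). Likewise, the number of Socs3 reads per Stat3 read was 0.062 to 0.155 in sham mice, 0.223 to 0.643 in vehicle-treated mice and 0.387 to 0.497 in lactate-treated mice, and the ischemic mice lay above all sham mice. These ratios restate the values above and were not tested.

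**Figure D2:**
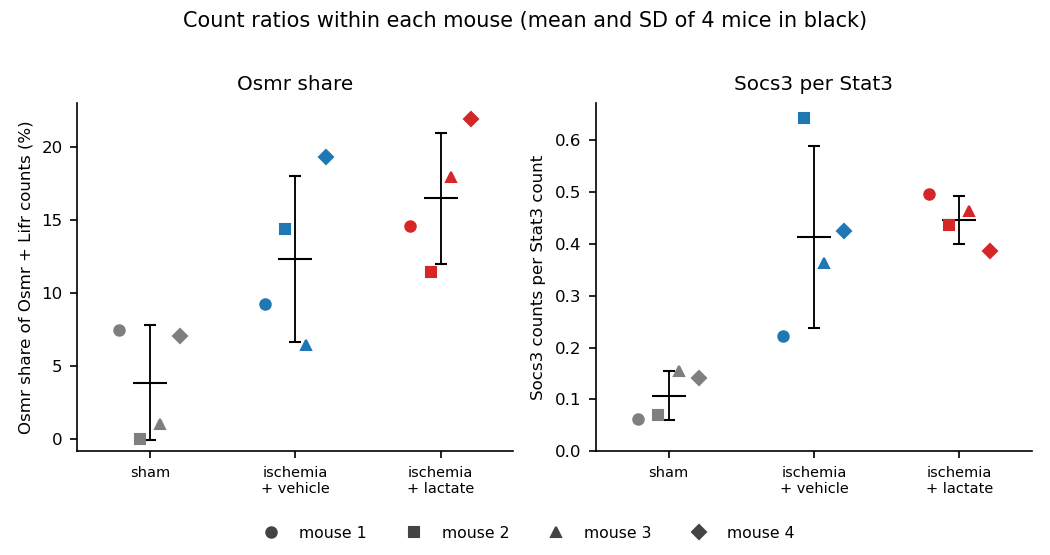
Left, Osmr reads as a percentage of Osmr and Lifr reads in each mouse. Right, Socs3 reads per Stat3 read in each mouse, with the mean and SD of 4 mice in black; the 8 ischemic mice lie between 0.223 and 0.643, above the 4 sham mice at 0.062 to 0.155.

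Il6st, the shared chain gp130, was 9.14 to 13.2 CPM in sham mice, 8.71 to 17.2 CPM in vehicle-treated mice and 10.02 to 13.7 CPM in lactate-treated mice. The highest value was in vehicle-treated mouse 2, and all groups overlapped. The log2 fold change was 0.27 (95% interval -0.24 to 0.78) with vehicle and 0.18 (-0.20 to 0.56) with lactate, and the latter interval ends at 1.48-fold. Without vehicle-treated mouse 2 the value with vehicle was 0.08. Il6ra, the chain that binds interleukin 6 itself, was 2.37, 1.56, 1.36 and 1.11 CPM in sham mice, 3.93, 2.20, 1.74 and 3.23 CPM with vehicle, and 3.11, 2.28, 2.77 and 1.62 CPM with lactate. The groups overlapped for it as well. Its log2 fold change was 0.84 ± 0.359 with vehicle (unadjusted p = 0.0364, adjusted p = 0.32, edgeR) and 0.64 ± 0.328 with lactate (adjusted p = 0.237, edgeR). Without vehicle-treated mouse 1 the value with vehicle was 0.60. Il6ra overlaps the antisense gene Gm42809, from which its reads cannot be told apart without strand.

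Osm and Lif, the ligands, lie close to each other on chromosome 11, at 4236420 to 4241026 and 4257557 to 4272514, both on the plus strand. Neither reached 1 CPM in enough mice to be tested. Osm had 0 reads in each sham mouse, 1, 3, 9 and 1 reads in vehicle-treated mice, and 1, 2, 5 and 2 reads in lactate-treated mice. Each ischemic mouse thus had at least 1 read, though 6 of the 8 lay at or below the floor of 3 counts. Against a floor of 3 counts over the sham group, the summed level of Osm was at least 4.50-fold higher with vehicle and at least 3.34-fold higher with lactate. These limits rest on mouse 3 of each group, without which they were 2.12-fold and 2.19-fold.

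Lif had 0 reads in each sham mouse, 0, 8, 17 and 0 reads in vehicle-treated mice, and 6, 12, 1 and 1 reads in lactate-treated mice. The reads came mostly from vehicle-treated mice 2 and 3 and lactate-treated mice 1 and 2. The summed level was at least 8.03-fold higher with vehicle and at least 6.68-fold higher with lactate than the group floor. Without vehicle-treated mouse 3 the former was 3.39-fold, and without lactate-treated mouse 2 the latter was 3.62-fold. When all genes with a read were tested, without the filter, the adjusted p against sham in edgeR was 0.147 for Osm and 0.172 for Lif with vehicle, and 0.0498 and 0.0252 with lactate.

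Il4ra encodes the chain shared by the receptors for interleukins 4 and 13, which signal mainly through STAT6, outside the gp130 family. The gene lies on chromosome 7 from 125552120 to 125579474, on the plus strand, and overlaps the antisense gene Gm44876. Il4ra was 4.22, 1.89, 3.12 and 2.47 CPM in sham mice, 8.52, 8.55, 11.2 and 11.004 CPM in vehicle-treated mice, and 9.20, 12.45, 9.23 and 11.9 CPM in lactate-treated mice. Every ischemic mouse was above every sham mouse. The means were 2.93 ± 0.998, 9.82 ± 1.49 and 10.7 ± 1.74 CPM (SD, n = 4). Against sham, the log2 fold change was 1.79 ± 0.260 with vehicle (adjusted p = 0.00322, edgeR) and 1.92 ± 0.243 with lactate (adjusted p = 0.000323, edgeR).

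The partners of Il4ra were few in reads. Il4 and Il13, its ligands, had 1 and 0 reads in all 12 mice. Of the 5 other genes of the interleukin 4 and 13 list, 1 was tested and 0 were called in any of the 3 comparisons. That gene was Il13ra1, the chain with which Il4ra forms the receptor for interleukin 13, at a log2 fold change of 0.91 ± 0.539 with vehicle (adjusted p = 0.488, edgeR) and 0.69 ± 0.434 with lactate (adjusted p = 0.335, edgeR).

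Counted together, 2 of the 8 genes tested were called up with vehicle, beside 1.29% of all 17019 genes tested, and 4 of 8 were called up with lactate, beside 7.88% of 17262. None was called down. All 4 vehicle-treated mice lay above all sham mice for 2 of the 8 (Socs3 and Il4ra), beside 4.14% of genes tested, and all 4 lactate-treated mice for 4 of the 8, beside 10.4%. With an unadjusted p under 0.05 in place of the adjusted p, 6 of 8 were called with vehicle (Osmr, Il6ra, Stat3, Socs3, Socs2 and Il4ra), beside 6.5% of genes tested, and 4 of 8 with lactate, beside 11.9%. The median log2 fold change of the 8 was 0.88 with vehicle and 0.75 with lactate, against 0.00 and -0.03 over all genes tested. Osmr is among the 4 of each lactate count and the 6 with vehicle at unadjusted p. It passed the filter largely through ischemic mice, so these counts are a description only. The comparisons share the sham mice, so they are not independent of each other, and the genes were chosen with earlier results of these data known.

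**Figure D3:**
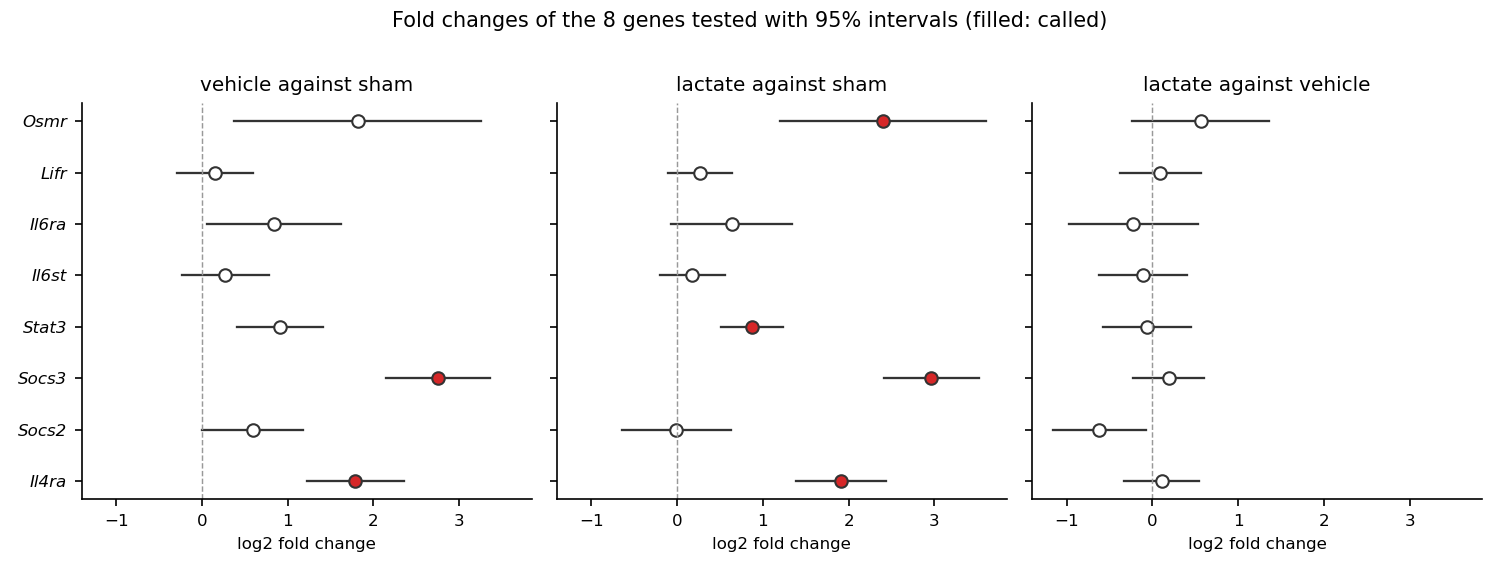
Log2 fold change with its 95% interval for the 8 genes tested in each comparison, where filled points were called. Socs3 and Il4ra are filled in both comparisons with sham, Osmr and Stat3 only in that of lactate, and no point is filled between lactate and vehicle.

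Between lactate-treated and vehicle-treated ischemic mice, none of the 8 genes tested was called by edgeR, DESeq2 or limma voom, beside 0.00574% of 17419 genes tested called in either direction by edgeR (1 gene). At an unadjusted p under 0.05 and 1.5-fold, Socs2 alone was lower with lactate, beside 2.47% of genes tested, and 0 were higher, beside 3.76%. Its level was 13.1 ± 2.26 CPM with vehicle and 8.59 ± 2.76 CPM with lactate (SD, n = 4), a log2 fold change of -0.62 (95% interval -1.16 to -0.08, unadjusted p = 0.0284, adjusted p = 0.535, edgeR). The values overlapped through vehicle-treated mouse 1 at 10.8 CPM and lactate-treated mouse 2 at 11.3 CPM.

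For the genes called against sham, the intervals limit how far lactate and vehicle could differ. The log2 fold change between lactate and vehicle was 0.19 (95% interval -0.22 to 0.60) for Socs3, 0.11 (-0.33 to 0.54) for Il4ra and -0.06 (-0.57 to 0.45) for Stat3. For Osmr it was 0.56 (-0.24 to 1.36), an interval that spans from somewhat lower to 2.57-fold higher with lactate. That Osmr and Stat3 were called only with lactate therefore does not show that lactate changed them, since the direct comparison was not called (adjusted p = 0.683 and 0.962, edgeR). Sums of reads were 25 with vehicle and 20 with lactate for Lif, and 14 and 10 for Osm, and both groups overlapped.

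The other genes of the pathway outside its targets were 9 further ligand genes, 3 further receptor chains, 10 Janus kinase and STAT genes and 13 SOCS family and other inhibitor genes. Of these, 23 were tested with vehicle against sham, 23 with lactate against sham and 24 with lactate against vehicle, and edgeR called 0 in any of them. Cntfr, the binding chain of the ciliary neurotrophic factor receptor, came closest, with all vehicle-treated mice above all sham mice and a log2 fold change of 0.79 ± 0.186 (adjusted p = 0.0607, edgeR). With vehicle it was called by DESeq2 (adjusted p = 0.0051), by limma voom (0.027), with Ensembl genes only (0.0496), with all 12 mice in a single fit (0.0456) and without vehicle-treated mouse 1 (0.0392), and over all alternatives its adjusted p ranged from 0.0051 to 0.194. With lactate its log2 fold change was 0.50 (adjusted p = 0.103, edgeR), and it was called without lactate-treated mouse 3 (0.62, adjusted p = 0.0419). Il6 itself had 1, 12 and 10 reads in the sham, vehicle and lactate groups and was not tested. Il6 and Cntfr were singled out after their values had been seen.

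The list of 22 known STAT3 target genes was counted in the same edgeR test of 2 groups at a time. With vehicle, 8 of 18 tested were called up, beside 1.29% of all genes tested, and with lactate 9 of 18, beside 7.88%. That test called none down. Fos, an immediate early gene at a log2 fold change of -0.96 ± 0.553 (adjusted p = 0.292, edgeR) with lactate, was called in some of the alternatives, among them limma voom and the fit without lactate-treated mouse 2. Lcn2, Timp1 and Cebpd reached 1 CPM in 0 of 4 sham mice and so passed the filter through ischemic mice alone. Their p-values against sham, these counts and the medians are therefore a description only. The list's median log2 fold change was 1.28 and 0.90, against 0.00 and -0.03 over all genes tested. Targets such as these also answer to other factors, among them NF-kappa B and p53, and the list was drawn up with earlier results of these data known.

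The largest changes in that list were in Lcn2, which encodes an acute-phase protein, and Timp1, an inhibitor of matrix metalloproteinases. Lcn2 had 2 reads over the 4 sham mice and 798 and 1401 over the vehicle-treated and lactate-treated mice, or 24.0 ± 2.56 and 43.9 ± 1.98 CPM (SD, n = 4), with adjusted p = 2.79e-06 and 7.7e-09 against sham in edgeR. Timp1 was 0.589 ± 0.194, 10.99 ± 3.57 and 28.7 ± 4.44 CPM in sham, vehicle and lactate, a log2 fold change against sham of 4.20 ± 0.351 and 5.59 ± 0.246 (adjusted p = 2.23e-05 and 2.78e-08, edgeR).

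Cebpd, a transcription factor of the acute-phase response, rose by 2.77 ± 0.456 on the log2 scale with vehicle (adjusted p = 0.00812, edgeR). Cdkn1a, a cell cycle inhibitor that is also a p53 target, rose by 2.52 ± 0.225 with vehicle (adjusted p = 4.03e-05) and 2.54 ± 0.257 with lactate (adjusted p = 4.65e-05, edgeR). Lrg1, a secreted glycoprotein, rose by 2.88 ± 0.328 on the log2 scale with lactate (adjusted p = 0.000139, edgeR). The 4 called genes with the largest change in each comparison are the ones named here.

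The number of targets called with vehicle was 5, 4, 4 and 5 without sham mouse 1, 2, 3 and 4, and 7 to 8 without a vehicle-treated mouse. Cdkn1a, Cebpd, Lcn2 and Timp1 were called in all 8 of these fits. With lactate it was 6 (without sham mouse 2) to 10 when a mouse was left out, and Cdkn1a, Cebpd, Gfap, Lcn2, Lrg1 and Timp1 were called in all 8. Of these genes, Cebpd, Lcn2 and Timp1 passed the filter through ischemic mice alone, with vehicle and with lactate. The share of all genes called was not counted in these fits, so the counts are a description only.

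**Figure D4:**
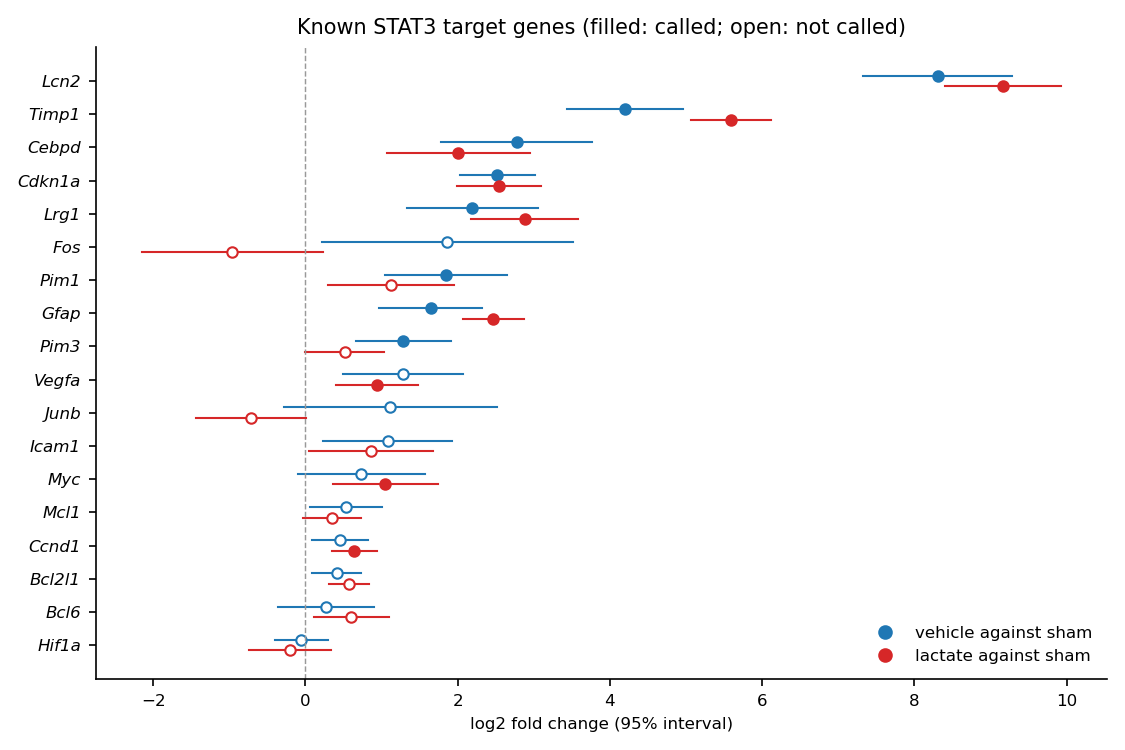
Log2 fold change with its 95% interval for the 18 known STAT3 target genes tested against sham in either treatment (blue, vehicle; red, lactate), where filled points were called. Lcn2 and Timp1 lie farthest to the right, 8 points are filled with vehicle and 9 with lactate, and none of the filled points lies below 0.

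Between lactate and vehicle, 0 of 19 targets tested were called by edgeR, while at an unadjusted p under 0.05 and 1.5-fold 3 were higher, beside 3.76% of genes tested, and 3 lower, beside 2.47%. DESeq2 called 2 of them, Lcn2 and Timp1, though the share of all genes it called was not counted. All 4 lactate-treated mice lay above all vehicle-treated mice for both, beside 2.99% of genes tested. The log2 fold change was 0.85 ± 0.143 for Lcn2 and 1.38 ± 0.236 for Timp1, each with an adjusted p of 0.265 in edgeR. These are target genes and not members of the receptor pathway itself, for which the direct comparison showed no call.

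Some marker genes of other cell types moved with the ischemic groups. The sum of 7 neutrophil markers was 3.23 to 7.65 CPM in sham mice, 12.03 to 76.1 CPM with vehicle and 20.6 to 43.8 CPM with lactate, and S100a8 and S100a9 were called up in both. Retnlg was 0.132, 3.08 and 3.04 CPM in sham, vehicle and lactate. It was called up with lactate, where it passed the filter through the lactate-treated mice alone (sham at most 0.527 CPM). With vehicle it did not pass the filter, so its calls do not set the treatments apart. These 3 genes carried the higher sums, since the other 4 markers summed to 2.79 to 5.57 CPM in sham mice, 3.37 to 5.70 CPM with vehicle and 3.11 to 4.60 CPM with lactate. Among those 4, Csf3r had a log2 fold change of -0.97 with vehicle (adjusted p = 0.648, edgeR) and -0.06 with lactate, and Ly6g was at 0 in all sham mice. The sum of 6 monocyte and macrophage markers was 6.52 to 9.74, 8.51 to 21.0 and 11.6 to 23.0 CPM, with Chil3 at 0 in all sham mice. Most of it was Lyz2, which encodes lysozyme and was called up with lactate (log2 fold change 1.12, adjusted p = 0.00483, edgeR), with all lactate-treated mice above all sham mice. The part of these cells in the levels of Socs3, Il4ra, Osm and Lif was not tested.

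Among vehicle-treated mice, mice 2 and 3, which had all the Lif reads and the most Osm reads, had neutrophil sums of 57.4 and 76.1 CPM, against 15.5 and 12.03 CPM in mice 1 and 4. Socs3 was also higher in mice 2 and 3, at 10.7 and 10.3 CPM, than in mice 1 and 4, at 7.96 and 9.54 CPM. Il4ra was 8.55 and 11.2 CPM in mice 2 and 3 and 8.52 and 11.004 CPM in mice 1 and 4. In lactate-treated mice, mouse 3 had the highest neutrophil sum, 43.8 CPM, and the most Osm reads, but 1 Lif read. Its Socs3 level was 11.9 CPM. Among lactate-treated mice, Socs3 was highest in mouse 2, at 12.7 CPM, where the neutrophil sum was 25.3 CPM. It was lowest in mouse 1, at 9.47 CPM, where that sum was 27.45 CPM. Mouse 2 also had the most Lif reads, 12.

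Summed microglia and endothelial markers were higher in lactate-treated mice than in all other mice, through a few genes. The sum of 8 microglia markers was 285 to 327 CPM in sham, 235 to 314 CPM with vehicle and 378 to 417 CPM with lactate, and that of 6 endothelial markers 121 to 132, 124 to 163 and 167 to 209 CPM. C1qa and C1qb, which encode complement subunits, were called up with lactate, and C1qb also with vehicle (log2 fold change 0.72, adjusted p = 0.0227, edgeR). Without these 2 genes the microglia sum was 219 to 237 CPM in sham mice, 134 to 213 CPM with vehicle and 211 to 232 CPM with lactate. P2ry12, a microglial purine receptor gene, was called down with vehicle and with lactate, and Cx3cr1 was called down with vehicle. Without Ly6c1, which was called up with lactate, the endothelial sums overlapped between all groups, at 45.8 to 53.4, 41.8 to 59.8 and 40.2 to 67.4 CPM. Astrocyte markers other than Gfap were not called, and the sum was 6039 to 9980, 9557 to 11389 and 9575 to 11355 CPM in the 3 groups. Most of that sum was Aldoc, with means of 7586, 9488 and 9195 CPM in sham, vehicle and lactate. Gfap, at means of 52.4, 159 and 283 CPM, was called up against sham in both treatments. Other markers went lower. The sum of 5 neuron markers was 3972.3 to 4284.6 CPM in sham mice, 3191.5 to 4908.2 CPM with vehicle and 3123.7 to 3971.6 CPM with lactate. All lactate-treated mice thus lay below all sham mice, by a narrow margin, while vehicle-treated mouse 1 lay above them. No neuron marker was called. The sum of 5 red blood cell markers was 560 to 633 CPM in sham mice, 333 to 500 CPM with vehicle and 375 to 499 CPM with lactate, and Hbb-bt was called down with lactate (adjusted p = 0.0109, edgeR). Mog, of the oligodendrocyte list, was called down with lactate (adjusted p = 0.0125, edgeR). Of the choroid plexus list, Ttr was called up with lactate, at 13.9 CPM against 1.48 CPM in sham (log2 fold change 3.25, adjusted p = 9.51e-05, edgeR). The choroid plexus markers of vehicle-treated mouse 2 went with the highest Il6st, Socs2 and Socs3 and the lowest Stat3 of that group, and their part was not tested.

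**Figure D5:**
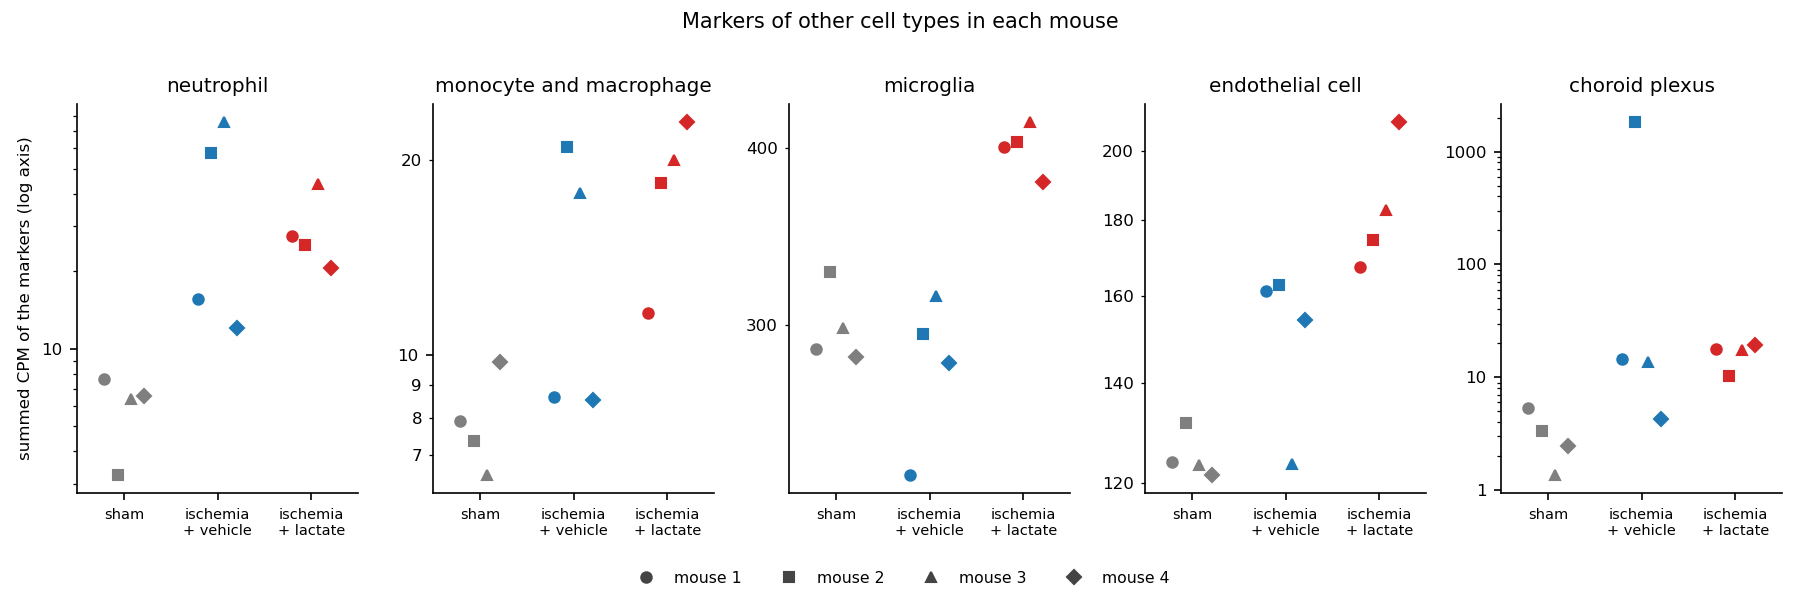
Summed CPM of marker genes of 5 other cell types in each mouse (log axis, a separate scale in each panel). Neutrophil sums are 3.23 to 7.65 CPM in sham mice and 12.03 to 76.1 CPM in ischemic mice, and the choroid plexus sum of vehicle-treated mouse 2 is 1838 CPM.

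Finally, the genes whose levels were most like those of the 4 called genes were sought among 13528 genes over the 12 mice, by Pearson's r of log2(CPM + 1). The 12 points fall into 3 groups and share library depth, so r describes mostly the step from sham to ischemia. For Socs3 they were Lcn2 (r = 0.979), Nfkbia, the inhibitor of NF-kappa B (0.978), and Olfr1033, an olfactory receptor gene by name (0.976). Nfkbia was 11.1 ± 1.55, 33.5 ± 3.96 and 34.0 ± 1.90 CPM in sham, vehicle and lactate, and was also among those nearest Il4ra (0.960), beside the glucose transporter gene Slc2a1 (0.964) and the protease inhibitor gene A2m (0.959).

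For Stat3 the nearest were Ezr, which encodes the membrane-cytoskeleton linker ezrin (r = 0.961), Itpk1 (0.939) and Prkab2 (0.932), a subunit of AMP-activated protein kinase. Ezr was 10.3 ± 2.03, 23.4 ± 7.20 and 23.8 ± 3.16 CPM, with the same wide spread among vehicle-treated mice as Stat3. For Osmr they were Cd59a, a complement inhibitor (0.912), Cmtm3 (0.912) and the tumor necrosis factor receptor gene Tnfrsf1a (0.886), which was 3.21 ± 0.408, 6.03 ± 2.22 and 8.13 ± 0.946 CPM.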

How the data were processed

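The sample labels gave 4 sham, 4 vehicle-treated and 4 lactate-treated ischemic mice. Short, low-quality and ribosomal nanopore cDNA reads were removed by the authors, whose methods name minimap2 for mapping of the full-length reads that remained, pinfish for isoforms and gffcompare for the match to the annotation. The submitters' notes name GRCm38 and DESeq 1.10.1. How reads were counted per gene and whether strand was used are not given in the sources used here. The authors deposited read counts per gene, not normalized, and CPM, each count divided by the mouse's total, without a TMM factor. The authors' own fold changes and P values were not used. In all, 31208 genes were read, and 4 lines without a gene were left out.

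Counts were compared between 2 groups at a time with edgeR 4.0.16 in R 4.3.3 (quasi-likelihood test, TMM, a filter of 1 CPM or more in 4 or more of 8 mice, Benjamini-Hochberg adjustment over all genes tested), after the script had been tested on simulated data. A call needed an adjusted p under 0.05 and a difference of 1.5-fold or more. Alternatives were DESeq2 1.42.0, limma 3.58.1 (voom with quality weights), other size factors, no filter, Ensembl genes only, other call rules, all 12 mice in a single fit, a replicate block and each mouse left out, where the filter asked for 3 of 7 mice. Total-count scaling was added after seeing the data. P-values measure the spread between the mice of a group. Named genes were all 10 members, at most 4 called genes per other list and comparison, and the 3 genes nearest to each of Osmr, Stat3, Socs3 and Il4ra. The members, lists and tests were chosen with earlier results of these data known. Python 3.11.15, numpy 2.4.6, pandas 2.3.3 and matplotlib 3.10.9 were used.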

Additional observations from a re-analysis of the deposited data

Results flagged for a closer look

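Among 61 groups of 4 mice examined for a value far from the others (28 of them groups of a member's CPM), 3 stood out by Dixon's criterion for 4 samples, and chance gives about 1 in 20. None was a member's level. The choroid plexus marker sum of vehicle-treated mouse 2 was 1838 CPM, against 4.255 to 14.7 CPM in the other vehicle-treated mice. The neuron marker sum of vehicle-treated mouse 1 was 4908 CPM, against 3192 to 3400 CPM. The oligodendrocyte marker sum of lactate-treated mouse 1 was 9432 CPM, against 8367 to 8490 CPM.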

How the results depend on the processing

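Socs3 and Il4ra kept their call against sham in all 16 other fits of each comparison. With vehicle, 6 members were called at unadjusted p values in place of 2, and 3 (Stat3 added) with DESeq2, with all 12 mice in a single fit and without vehicle-treated mouse 2. With lactate, 3 were called without sham mouse 3 and 6 without the filter, where Osm and Lif were added. Both had 0 reads in each sham mouse. The share of all genes called was not counted in these other fits, so their counts are a description only. Between lactate and vehicle, 1 member was called at unadjusted p values. Other pathway genes called were 13 at unadjusted p values with vehicle against sham, in place of 8, and 4 to 9 with a mouse left out, where the 9 include Cntfr. Between lactate and vehicle they were 8 at unadjusted p values and 2 with DESeq2, in place of 0. The cause was not tested.

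Among fold changes that were not called, the sign turned in 11 of 288 cases. Socs2 with lactate against sham was 0.036 with Ensembl genes only, 0.013 with the replicate block, and -0.20 to 0.274 with a mouse left out. Lifr with vehicle against sham was -0.008 to 0.24 with a mouse left out. Between lactate and vehicle, Stat3 was 0.10 with limma voom and -0.22 to 0.15 with a mouse left out, Il6ra -0.40 to 0.02, and Il6st -0.26 to 0.08. The labels number the mice 1 to 4 in every group, which pairs no animals. With each gene's group mean subtracted from log2(CPM + 1), same-numbered mice correlated at -0.17 to 0.176 over 18134 genes. The replicate block left the members called at 2, 4 and 0. Of other pathway genes it lost Pim1 with vehicle against sham (7 called) and gained Fos with lactate against sham (10 called). Depth limits Osm, Lif and Osmr, which had 0 to 8 reads in each sham mouse.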
